A study of Mus musculus with 12 samples.

Results

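The genes described here are 40 genes of glycolysis and the hypoxia response, taken by name from the annotation: the glucose transporter and the enzymes that carry glucose to lactate, the phosphoglucomutases and glycogen synthase, and the subunit, hydroxylases and targets of the transcription factor HIF-1. Each of the 40 symbols was found among the 54532 genes of the count table, and all 40 passed the filter on low counts in each comparison. RNA was sequenced from bone marrow macrophages (BMM) of wild-type C57BL/6J mice aged 2 to 3 months, grown from bone marrow with CSF-1, the growth factor that drives macrophage differentiation. Cells were passaged onto uncoated plates or plates coated with fibronectin, a matrix protein that binds integrin α5β1, grown until confluent, and incubated for 24 h with 10 µg/ml of control IgG or of a neutralizing antibody against integrin α5 (anti-ITGA5). Either antibody was used on either plate, which gave 4 groups of 3 libraries. All 12 libraries came from cultures in serum and CSF-1, and no group was left without antibody. The study calls the replicates of a group independent experiments. The labels tie no library to a mouse or culture, and p-values measure the spread between these libraries.

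Glycolysis splits glucose into pyruvate in the cytosol, and macrophages with high glycolytic flux export much of that carbon as lactate. HIF-1 is a dimer whose α subunit, encoded by Hif1a, is hydroxylated by the oxygen-dependent EGLN enzymes and then degraded. When hydroxylation fails, or when inflammatory signals raise the subunit, HIF-1 binds short hypoxia response elements near its targets. These targets include most glycolytic enzymes, proteins that remove or adapt mitochondria, and EGLN3 itself, which forms a feedback loop. In macrophages the pathway is known for its part in inflammatory activation.

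Libraries held 12954342 to 22075432 counts. The 40 genes took 2.36% to 2.56% of the counts in the IgG libraries without fibronectin and 1.94% to 2.20% in the anti-ITGA5 libraries on the same plates. With fibronectin these shares were 2.48% to 2.65% and 2.19% to 2.25%. Anti-ITGA5 replicate 2 without fibronectin was the shallowest library and stood apart from the other 2 of its group. Between pairs of libraries, chi-square per gene ran from 11.4 to 25.6 in that group and from 2.79 to 8.13 in the others. All 10 macrophage markers examined were detected, with a summed FPKM (fragments per kilobase, scaled by library total) of 7270.4 to 11273.0. The sums of markers of other cell types were 0.207 to 0.409 for fibroblast, 0.235 to 0.529 for lymphocyte, 0.135 to 0.471 for dendritic cell, 1.82 to 4.43 for neutrophil and 3.00 to 7.34 for osteoclast markers, with Ly6g, Retnlg, Cd3d and Calcr at 0. Itga5 itself, whose transcript the antibody does not remove, was at 44.5 to 49.1 FPKM without and 49.4 to 53.1 FPKM with the neutralizing antibody on uncoated plates, and at 45.5 to 49.0 against 47.4 to 52.2 FPKM, which overlap, on fibronectin.

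Promoters of some of these genes are shown for the short sequence through which HIF-1 is known to act. The list was drawn up from known HIF-1 targets, so matches in its promoters are no finding about these cells. Promoters of 300 bases (250 before to 50 after the start) were read from RefSeq, build GRCm38.p6, and were found for 37 of the 40 genes. The core of the hypoxia response element, ACGTG, and its variant GCGTG were searched on both strands. The 5 genes below had the largest mean fall of those that passed the test on both coatings and have an entry. Hk3 and Higd1a follow as genes with the same roles that did not pass it, chosen after their values were seen. Capitals mark either core, in either orientation, and neighbouring matches may overlap (CACGTG holds ACGTG on both strands). Each run is written 5′ to 3′ on the strand of its gene. For Ak4, which has 4 annotated starts, the start nearest to that of the count table is shown, and it holds GCGTG and no ACGTG.
Ddit4, chr10:59951721-59952020, minus strand: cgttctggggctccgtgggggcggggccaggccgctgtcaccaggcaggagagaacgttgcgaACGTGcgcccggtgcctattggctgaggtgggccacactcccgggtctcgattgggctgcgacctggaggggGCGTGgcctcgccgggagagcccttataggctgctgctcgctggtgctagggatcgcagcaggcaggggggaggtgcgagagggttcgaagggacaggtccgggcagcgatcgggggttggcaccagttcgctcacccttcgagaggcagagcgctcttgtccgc
Egln3, chr12:54203825-54204124, minus strand: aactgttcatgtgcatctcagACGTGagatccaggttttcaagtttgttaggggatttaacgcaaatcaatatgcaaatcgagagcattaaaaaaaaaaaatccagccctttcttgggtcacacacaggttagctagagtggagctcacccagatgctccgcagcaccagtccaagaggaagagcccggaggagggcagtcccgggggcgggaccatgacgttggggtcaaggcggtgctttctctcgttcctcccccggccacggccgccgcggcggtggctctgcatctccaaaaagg
Ak4, chr4:101419039-101419338, plus strand: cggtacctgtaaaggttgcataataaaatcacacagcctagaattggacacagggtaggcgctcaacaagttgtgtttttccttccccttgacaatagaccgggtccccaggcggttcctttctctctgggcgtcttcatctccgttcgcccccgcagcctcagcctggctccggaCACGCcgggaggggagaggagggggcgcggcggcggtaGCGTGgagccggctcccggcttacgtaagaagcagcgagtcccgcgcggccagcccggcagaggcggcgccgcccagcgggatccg
Hk2, chr6:82774405-82774704, minus strand: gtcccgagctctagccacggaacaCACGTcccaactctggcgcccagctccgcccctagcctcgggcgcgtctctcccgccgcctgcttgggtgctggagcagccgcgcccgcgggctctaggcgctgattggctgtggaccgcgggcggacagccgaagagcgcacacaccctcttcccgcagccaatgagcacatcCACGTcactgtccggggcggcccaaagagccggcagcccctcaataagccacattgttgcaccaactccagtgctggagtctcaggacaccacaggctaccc
Bnip3, chr7:138909457-138909756, minus strand: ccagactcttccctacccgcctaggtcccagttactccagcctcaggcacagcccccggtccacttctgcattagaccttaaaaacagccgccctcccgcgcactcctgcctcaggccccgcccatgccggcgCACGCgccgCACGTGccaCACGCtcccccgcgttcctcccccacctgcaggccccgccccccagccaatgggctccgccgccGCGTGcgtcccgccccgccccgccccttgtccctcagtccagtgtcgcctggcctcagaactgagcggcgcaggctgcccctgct
Hk3, chr13:55021336-55021635, minus strand: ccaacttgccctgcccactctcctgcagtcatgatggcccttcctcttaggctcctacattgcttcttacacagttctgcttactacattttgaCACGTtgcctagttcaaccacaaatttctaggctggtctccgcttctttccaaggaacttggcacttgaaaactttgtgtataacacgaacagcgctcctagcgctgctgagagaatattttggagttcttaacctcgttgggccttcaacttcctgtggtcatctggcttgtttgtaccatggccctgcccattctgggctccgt
Higd1a, chr9:121857747-121858046, minus strand: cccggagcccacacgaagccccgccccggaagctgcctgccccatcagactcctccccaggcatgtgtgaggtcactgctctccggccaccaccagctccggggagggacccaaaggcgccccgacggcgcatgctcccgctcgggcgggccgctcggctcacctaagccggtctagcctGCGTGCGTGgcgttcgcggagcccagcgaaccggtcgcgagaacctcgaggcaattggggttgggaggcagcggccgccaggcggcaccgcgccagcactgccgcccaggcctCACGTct

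ACGTG was present in at least 1 promoter of 27 of the 37 genes (73.0%), and either core in 34 (91.9%). Among all 32851 promoters of the table, 19.6% held ACGTG and 43.8% held either core. Counted by gene, with a match in any promoter, these shares were 21.8% and 46.7% of 27025 genes. Among the 9580 tested genes with a promoter entry, ACGTG was present in 29.7% and either core in 67.7%. The share with ACGTG was 16 of 22 (72.7%) for genes that fell on both coatings and 11 of 15 (73.3%) for the other genes of the list. The Hk2 promoter, whose gene fell, held 2 ACGTG cores, starting at -226 and -52 from the start site. The Hk3 promoter held 1, at -156. The Higd1a promoter held 1 ACGTG and 2 GCGTG cores, although its transcript did not pass the test on either coating. A match to these letters is a description and not evidence of binding.

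Upon ITGA5 neutralization, most of the 40 genes were lower on each coating, and 24 fell on both, as did 7.23% of the 12681 genes tested on both. The 40 genes were chosen with earlier results of these data known, so their shares beside those of all genes are descriptive only. Without fibronectin, 27 of the 40 genes fell, 1 (Pfkp) rose and 12 did not pass the test (edgeR's quasi-likelihood test, adjusted p of 0.05 or less after Benjamini-Hochberg adjustment over all genes tested). Of all 12924 genes tested there, 9.79% fell and 11.0% rose. The count of 27 was 13 without IgG replicate 1 or without IgG replicate 3, where 4.7% and 5.07% of all genes fell, and 7 in an unfiltered limma fit of log2(FPKM + 1), where 2.08% did. With fibronectin, 29 fell, none rose and 11 did not pass the test, against 13.2% of 12916 genes that fell and 14.4% that rose. The median log2 fold change of the 40 genes was -0.33 without and -0.30 with fibronectin, while that of all genes was 0.0090 and -0.0038. Scaled by total counts in place of TMM (edgeR's trimmed mean of M-values), 947 genes fell and 1832 rose without fibronectin and 1264 fell and 2407 rose with it, and 25 and 27 of the 40 genes fell. The estimate was negative for 37 of the 40 genes on each coating. FPKM of every anti-ITGA5 library lay below every IgG library for 31 genes without and 30 genes with fibronectin, a separation seen in 19.4% and 20.6% of all genes tested. With 3 libraries against 3, the exact permutation test cannot give a 2-sided p below 0.1, the value of each separated gene. In such bulk cultures, fewer cells that express a gene and less RNA per cell cannot be told apart.

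**Figure D1:**
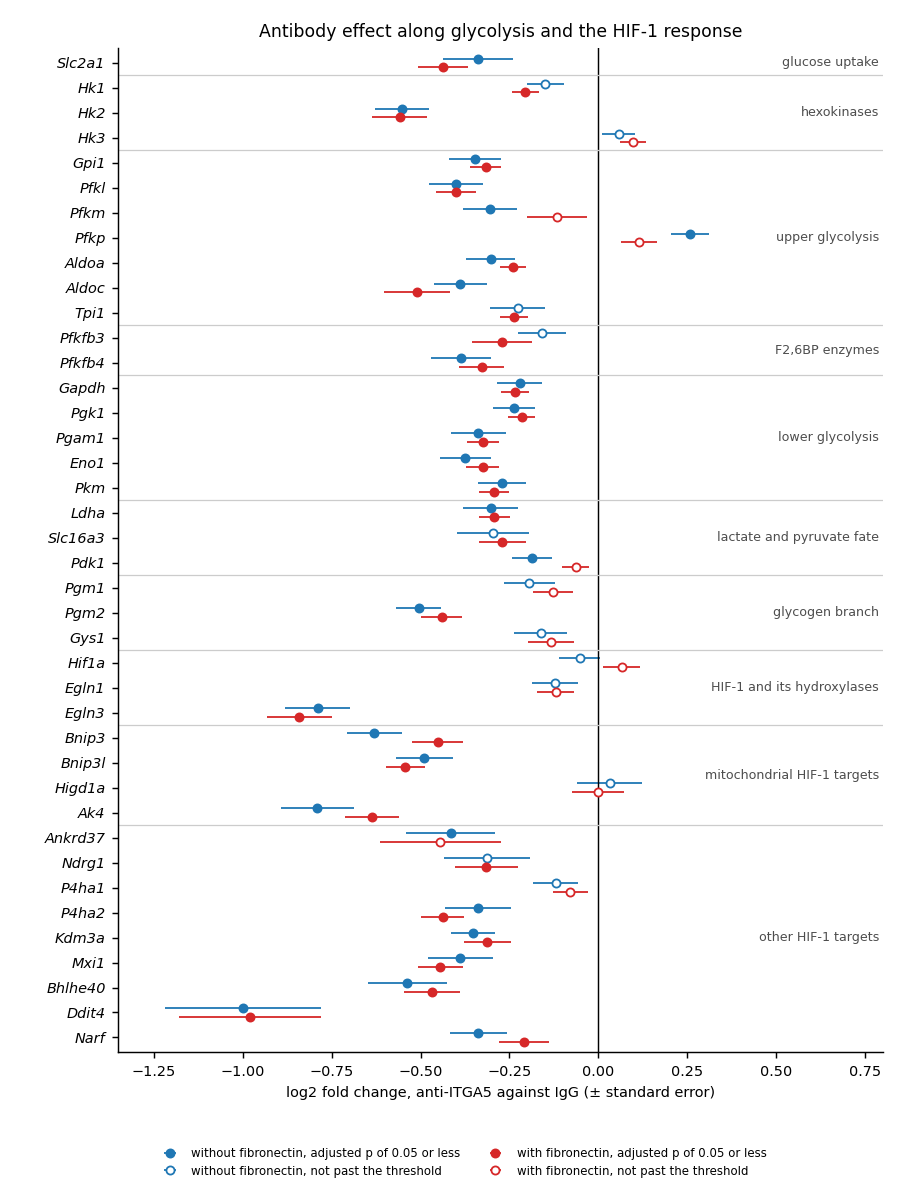
Log2 fold change (anti-ITGA5 against IgG, with standard error, x axis) of the 40 genes in pathway order, without fibronectin (blue) and with fibronectin (red); filled points passed an adjusted p of 0.05. Estimates lie left of 0 for 37 genes on each coating, and Ddit4, Egln3 and Ak4 lie furthest to the left. F2,6BP stands for fructose-2,6-bisphosphate.

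The shift was small per gene against the antibody's largest effects, and it involved genes of very different levels. Of all fold changes, 10.7% without and 13.5% with fibronectin lay below the median of the 40 genes. Among the 40 genes, Hk2 had the deepest fall of the glycolytic enzymes (-0.55 and -0.56), and the HIF-1 targets Ddit4, Egln3 and Ak4 lay below it on both coatings. In the distribution over all genes, 115 genes without and 99 genes with fibronectin had a fold change beyond 1.5 log2 units, and none of the 40 was among them.

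**Figure D2:**
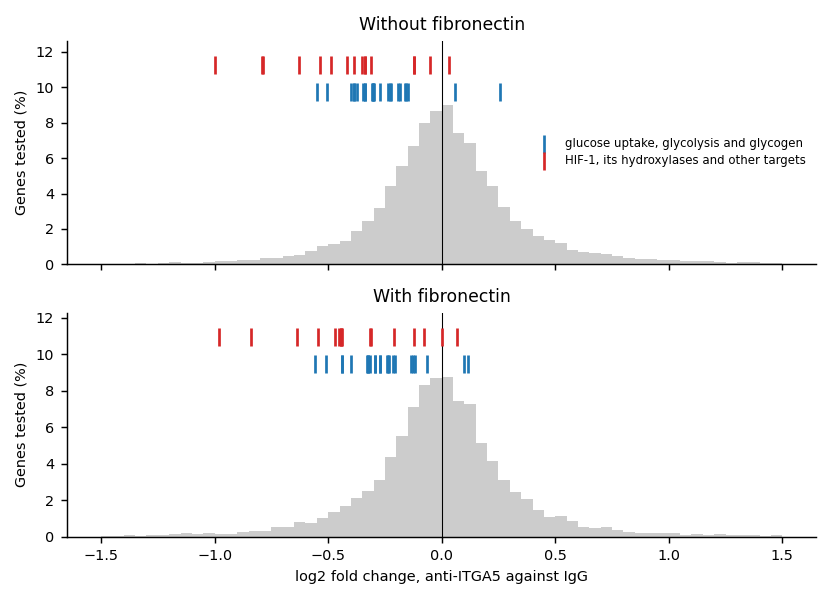
Share of all tested genes (%, y axis) by log2 fold change (x axis, bins of 0.05) for each coating, with ticks for the 40 genes: glucose uptake, glycolysis and glycogen in blue, HIF-1, its hydroxylases and other targets in red. All genes centre near 0, the ticks centre near -0.33 and -0.30, and the few genes beyond 1.5 log2 units are not drawn.

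Glucose enters macrophages mainly through GLUT1, the product of Slc2a1. Its FPKM was 45.9, 39.2 and 49.8 in the IgG libraries without fibronectin and 39.5, 30.5 and 36.3 in the anti-ITGA5 libraries. With fibronectin the IgG libraries had 48.8, 43.0 and 50.0 and the anti-ITGA5 libraries 36.3, 31.2 and 37.3. The groups touched on uncoated plates, where IgG replicate 2 was as low as anti-ITGA5 replicate 1, and did not overlap on fibronectin. Slc2a1 fell by 0.34 ± 0.0979 (log2, SE; adjusted p = 0.033) without and by 0.44 ± 0.0706 (adjusted p = 0.00062) with fibronectin. The first call was lost in 3 of 6 fits with 1 library left out, with an adjusted p of up to 0.159.

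Hexokinases trap glucose as glucose-6-phosphate, and the 3 forms behaved differently. Hk2, the inducible form that binds mitochondria, was at 34.3, 29.7 and 36.2 FPKM with IgG and at 23.5, 20.8 and 23.8 with anti-ITGA5 on uncoated plates. On fibronectin it was at 32.8, 29.9 and 35.5 against 22.4, 19.6 and 24.7. All anti-ITGA5 libraries were below all IgG libraries, with falls of 0.55 ± 0.0760 (adjusted p = 0.00060) and 0.56 ± 0.0779 (adjusted p = 0.00022). Hk1, the form found in most tissues, was at 26.1, 25.8 and 27.2 FPKM with IgG and 24.5, 22.3 and 24.3 with anti-ITGA5 without fibronectin, a difference that missed the threshold (-0.15 ± 0.0520, adjusted p = 0.068). On fibronectin its libraries had 28.7, 28.7 and 27.6 against 24.8, 24.3 and 24.8, and it fell by 0.21 ± 0.0380 (adjusted p = 0.0016). Hk3, a form typical of myeloid cells, was by far the most abundant of these 3 genes, and its estimate had the opposite sign. IgG libraries without fibronectin had 229.6, 232 and 229 FPKM and anti-ITGA5 libraries 241, 235 and 239; with fibronectin the values were 239.5, 236 and 226 against 253, 245 and 254. The anti-ITGA5 values lay above the IgG values on both coatings, but the differences of 0.06 (95% interval -0.05 to 0.16) and 0.10 (0.02 to 0.18) did not pass (adjusted p = 0.43 and 0.071). With fibronectin, scaling by total counts brought Hk3 past the threshold (0.14, adjusted p = 0.014).

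Summed hexokinase FPKM was therefore nearly level while its make-up moved. The sum was 289.9 ± 2.51 (SD, n = 3) with IgG and 284.9 ± 6.17 with anti-ITGA5 without fibronectin, and 295.0 ± 5.71 and 297.5 ± 7.80 with fibronectin. Hk2 made up 11.5% ± 1.06 of that sum in IgG and 7.96% ± 0.412 in anti-ITGA5 libraries without fibronectin, and 11.1% ± 1.07 and 7.47% ± 0.666 with fibronectin. The share of Hk3 went from 79.4% ± 1.20 to 83.7% ± 0.659 and from 79.3% ± 0.990 to 84.3% ± 0.541. The shares of the IgG and anti-ITGA5 libraries did not overlap for either gene on either coating.

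**Figure D3:**
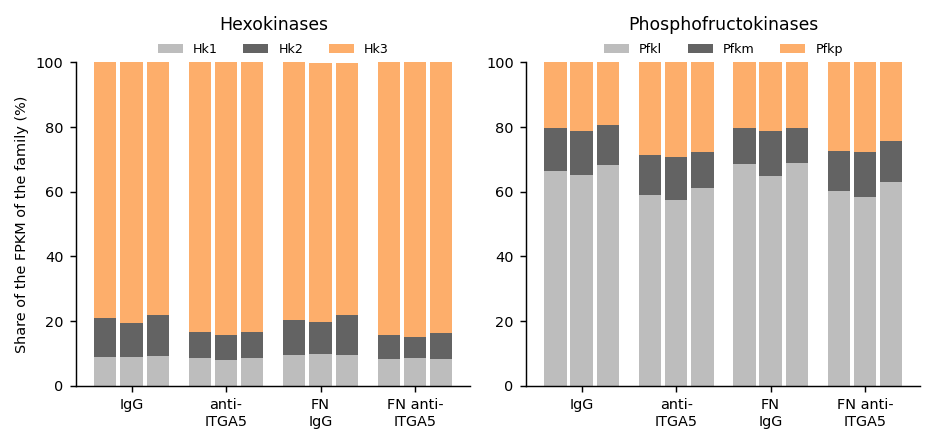
Share of each gene in the summed FPKM of its family (%, y axis) for the 3 hexokinases and the 3 phosphofructokinases, 1 bar per library, 3 libraries per group (FN, fibronectin-coated). Hk3 and Pfkp take larger shares in the anti-ITGA5 libraries on both coatings, and Hk2 and Pfkl take smaller ones.

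Phosphofructokinase catalyses the committed step of glycolysis, and its 3 forms also differed. The family's summed FPKM was 68.0 ± 4.19 (SD, n = 3) with IgG and 57.8 ± 4.04 with anti-ITGA5 without fibronectin, and 68.7 ± 2.79 and 58.1 ± 1.54 with it. Pfkl, the liver form and the most abundant one here, was at 46.9, 41.3 and 48.0 FPKM with IgG and 35.8, 30.6 and 36.4 with anti-ITGA5 on uncoated plates. On fibronectin the values were 48.7, 42.5 and 48.0 against 35.8, 33.0 and 36.7. The groups did not overlap, and Pfkl fell by 0.40 ± 0.0750 (adjusted p = 0.0039) and 0.40 ± 0.0570 (adjusted p = 0.00026). Pfkp, the platelet form, was the only gene of the list that rose. Its FPKM was 14.4, 13.3 and 13.7 with IgG and 17.3, 15.6 and 16.4 with anti-ITGA5 without fibronectin, a rise of 0.26 ± 0.0539 (adjusted p = 0.0071) that held in each fit with 1 library left out. On fibronectin it was at 14.5, 13.9 and 14.2 against 16.3, 15.6 and 14.2, which did not pass the test (0.11 ± 0.050, adjusted p = 0.11). Without anti-ITGA5 replicate 3 on fibronectin the difference was 0.17 (adjusted p = 0.0078). The share of Pfkp in the family's FPKM was 20.3% ± 0.791 with IgG and 28.4% ± 0.876 with anti-ITGA5 on uncoated plates, and 20.7% ± 0.464 and 26.5% ± 1.78 on fibronectin. Pfkm, the muscle form, fell without fibronectin (-0.31 ± 0.0759, adjusted p = 0.017) and was at -0.12 ± 0.0854 with it (adjusted p = 0.34).

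Of these 3 genes, Pfkp and Pfkm each overlap a gene on the opposite strand, and the sources used here do not state whether counting used strand. Pitrm1, which overlaps Pfkp, had 45.0% as many counts as Pfkp and rose by 0.22 on both coatings (adjusted p = 0.016 and 0.0095). Senp1, which overlaps Pfkm, had 150.3% as many counts as Pfkm and also rose, by 0.36 and 0.37. How far reads of these neighbours entered the values of Pfkp and Pfkm was not tested.

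Between the hexokinase and triose steps, Gpi1, which converts glucose-6-phosphate to fructose-6-phosphate, fell by 0.35 and 0.32 (adjusted p = 0.0074 and 0.00017). Aldoa, the aldolase that made up 98.0% to 98.3% of aldolase FPKM in every group, was at 910.5, 877 and 935 with IgG and 782, 639 and 779 with anti-ITGA5 without fibronectin. With fibronectin its libraries had 973, 931 and 971 against 809.5, 816 and 811. It fell by 0.30 ± 0.0693 (adjusted p = 0.011) and by 0.24 ± 0.0357 (adjusted p = 0.00035), with no overlap. Aldoc, a minor aldolase in these cells, was at 16.4, 19.5 and 16.7 FPKM against 13.7, 12.5 and 13.8 without fibronectin and at 20.9, 21.7 and 16.8 against 13.8, 15.3 and 12.7 with it. Its anti-ITGA5 libraries were again all lower, and it fell by 0.39 ± 0.0751 and 0.51 ± 0.0922 (adjusted p = 0.0047 and 0.0014). Tpi1, which interconverts the triose phosphates, was at -0.23 without (adjusted p = 0.063) and fell by 0.24 with fibronectin (adjusted p = 0.00079).

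Fructose-2,6-bisphosphate, the potent activator of phosphofructokinase, is made and removed by the PFKFB enzymes. Pfkfb4 was at 6.72, 6.26 and 7.17 FPKM with IgG and 4.73, 4.97 and 5.63 with anti-ITGA5 without fibronectin, and at 6.84, 6.86 and 6.91 against 5.41, 5.65 and 5.38 with it. It fell by 0.39 ± 0.0842 and 0.33 ± 0.0634 (adjusted p = 0.0087 and 0.0022). Pfkfb3, the form with the strongest kinase bias, was at 10.9, 10.3 and 12.2 FPKM against 9.88, 9.90 and 10.0 without fibronectin, which missed the threshold (-0.16 ± 0.0666, adjusted p = 0.12). On fibronectin it was at 11.2, 10.8 and 12.8 against 9.18, 8.72 and 11.0, where 1 anti-ITGA5 library reached into the IgG range, and it fell by 0.27 ± 0.0841 (adjusted p = 0.031).

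All 5 enzymes of the lower, energy-yielding part of the pathway fell on both coatings, as did 7.23% of all genes. Pgk1, which forms ATP from 1,3-bisphosphoglycerate, was the most abundant gene of the list, at 1024, 987 and 1025 FPKM with IgG and 912, 769 and 887 with anti-ITGA5 without fibronectin. On fibronectin it was at 1113, 1039 and 1090.3 against 952, 926 and 918. It fell by 0.24 ± 0.0599 (adjusted p = 0.018) and 0.22 ± 0.0384 (adjusted p = 0.0013). Eno1, the enolase, was at 561, 505 and 568 FPKM against 448, 369 and 441 without and at 583, 527 and 584 against 461, 433 and 460.4 with fibronectin, and fell by 0.37 ± 0.0719 and 0.32 ± 0.0469 (adjusted p = 0.0046 and 0.00028). Pgam1, the phosphoglycerate mutase, was at 352, 318 and 365 FPKM against 288, 238 and 291 and at 371, 343 and 366 against 298, 273 and 293, with falls of 0.34 ± 0.0777 and 0.32 ± 0.0449 (adjusted p = 0.012 and 0.00021). None of these 3 genes had overlapping groups, and in each of them anti-ITGA5 replicate 2 without fibronectin was the lowest of the 12 libraries. Gapdh, often used as a reference gene, fell by 0.22 and 0.23 (adjusted p = 0.030 and 0.00072), and Pkm, the pyruvate kinase, by 0.27 and 0.29 (adjusted p = 0.018 and 0.00029). Without fibronectin, the calls of Gapdh, Pgk1, Pgam1 and Pkm were lost without IgG replicate 1 or without IgG replicate 3, and that of Gapdh also without IgG replicate 2 (highest adjusted p 0.074 to 0.13), while Eno1 kept its call. With fibronectin all 5 kept theirs in each fit with 1 library left out. Named pseudogenes and near copies of Pgk1, Eno1, Pgam1 and Gapdh held at most 0.986% as many counts as their parent.

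Summed over 9 abundant enzymes from Gpi1 to Ldha, FPKM was 5816.5 ± 263.9 (SD, n = 3) with IgG and 4779.4 ± 495.8 with anti-ITGA5 without fibronectin. With fibronectin it was 6221.0 ± 251.9 and 5187.4 ± 82.2. No anti-ITGA5 library reached the lowest IgG library on its coating, since the highest anti-ITGA5 sums were 5083.6 and 5264.8 and the lowest IgG sums 5524.8 and 5934.5.

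Pyruvate then goes to lactate or to the mitochondria. Ldha, the lactate dehydrogenase subunit that favours lactate, was at 764, 715 and 790.4 FPKM with IgG and 658, 523 and 654 with anti-ITGA5 without fibronectin. On fibronectin the values were 856, 775 and 843 against 691, 652 and 679. The groups did not overlap, and Ldha fell by 0.30 ± 0.0781 (adjusted p = 0.020) and 0.29 ± 0.0443 (adjusted p = 0.00040). Slc16a3, the lactate exporter MCT4, was at 51.3, 43.9 and 55.3 FPKM against 44.3, 34.1 and 43.6 without fibronectin, with overlapping groups and no call (-0.30 ± 0.102, adjusted p = 0.063). With fibronectin it was at 57.1, 47.7 and 55.8 against 46.6, 41.4 and 45.3, and it fell by 0.27 ± 0.0654 (adjusted p = 0.0087). Pdk1, a kinase that holds back pyruvate dehydrogenase, fell by 0.19 without fibronectin (adjusted p = 0.040) and was at -0.06 with it (95% interval -0.15 to 0.02, adjusted p = 0.24).

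In the glycogen branch, 1 of 3 genes fell on both coatings (7.23% of all genes did), the phosphoglucomutase gene that the count table names Pgm2. RefSeq names this chromosome 4 gene Pgm1 and uses Pgm2 for the chromosome 5 gene, so the symbols here follow the count table. Pgm2 was at 32.4, 31.6 and 35.5 FPKM with IgG and 24.2, 21.8 and 23.8 with anti-ITGA5 without fibronectin, and at 34.6, 30.9 and 34.9 against 23.7, 24.8 and 25.6 with it. It fell by 0.51 ± 0.0628 (adjusted p = 0.00032) and 0.44 ± 0.0574 (adjusted p = 0.00013), with wide gaps between the groups. Pgm1 was at 23.1, 21.2 and 22.7 FPKM against 20.9, 17.2 and 20.1 and at 21.8, 23.7 and 21.6 against 20.2, 21.4 and 20.01. Its differences of -0.19 ± 0.0726 and -0.13 ± 0.0567 did not pass (adjusted p = 0.086 and 0.12). Gys1, the glycogen synthase, was at -0.16 and -0.13 (adjusted p = 0.16 and 0.15), and it overlaps Ruvbl2 on the opposite strand, which had 118.3% as many counts and rose on both coatings (0.25 and 0.33).

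The transcript of the HIF-1 α subunit itself did not pass the test. Hif1a was at 21.6, 23.1 and 20.4 FPKM with IgG and 21.3, 20.1 and 21.1 with anti-ITGA5 without fibronectin, and at 19.6, 21.5 and 22.1 against 21.7, 21.7 and 22.9 with it. The groups overlapped on both coatings, and the differences were -0.05 (95% interval -0.18 to 0.08, adjusted p = 0.58) and 0.07 (-0.05 to 0.18, adjusted p = 0.38). These data hold no measurement of the protein, whose level is set largely after translation. Egln1, the main oxygen-sensing hydroxylase of HIF-1, was at 25.4, 23.5 and 26.8 FPKM against 23.2, 21.5 and 24.5 and at 27.6, 24.8 and 27.2 against 24.8, 23.5 and 25.0, with overlapping groups. Its differences of -0.12 ± 0.0654 and -0.12 ± 0.0526 did not pass (adjusted p = 0.22 and 0.11).

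Egln3, the hydroxylase that HIF-1 induces, showed one of the deepest falls of the list. It was at 16.1, 13.3 and 16.5 FPKM with IgG and 9.04, 8.05 and 9.27 with anti-ITGA5 without fibronectin, and at 17.3, 15.6 and 19.2 against 10.4, 8.60 and 10.1 with it. No anti-ITGA5 library came near the IgG range on either coating. Egln3 fell by 0.79 ± 0.0913 (adjusted p = 0.00021) and by 0.84 ± 0.0910 (adjusted p = 3.3e-05). On the linear scale it fell by 42.1% and, with fibronectin, fell by 44.2%. Both calls held under each alternative tried. ACGTG occurs once in its promoter, at -229.

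Among mitochondrial HIF-1 targets, 3 of 4 genes fell on both coatings (7.23% of all genes did), with medians over the 4 genes of -0.56 and -0.50. Bnip3, a receptor that marks mitochondria for removal by autophagy, was at 39.2, 37.3 and 36.5 FPKM with IgG and 26.4, 20.9 and 25.3 with anti-ITGA5 without fibronectin, and at 35.4, 33.5 and 38.8 against 27.6, 23.6 and 27.7 with it. It fell by 0.63 ± 0.0772 (adjusted p = 0.00029) and 0.45 ± 0.0718 (adjusted p = 0.00057). Ak4, a nucleotide kinase of the mitochondrial matrix, was at 11.7, 10.4 and 12.3 FPKM against 7.34, 5.34 and 6.98 and at 11.2, 10.2 and 12.1 against 7.60, 6.61 and 7.33. It fell by 0.79 ± 0.103 (adjusted p = 0.00044) and 0.64 ± 0.0761 (adjusted p = 6.9e-05). For both genes the groups were well apart on each coating. Bnip3l, the related mitophagy receptor, fell by 0.49 and 0.54 (adjusted p = 0.0020 and 1.9e-05).

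Higd1a, a hypoxia-inducible protein of the inner mitochondrial membrane, was the exception in that group and is named here after its values were seen. It was at 14.5, 12.1 and 14.6 FPKM against 14.8, 12.2 and 14.8 without fibronectin and at 15.7, 14.3 and 15.9 against 16.5, 15.5 and 13.8 with it. The libraries of both treatments covered the same range. Its differences were 0.03 (95% interval -0.17 to 0.23) and -0.00047 (-0.16 to 0.16), with adjusted p of 0.85 and 0.997, and their sign changed with the scaling on fibronectin.

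**Figure D4:**
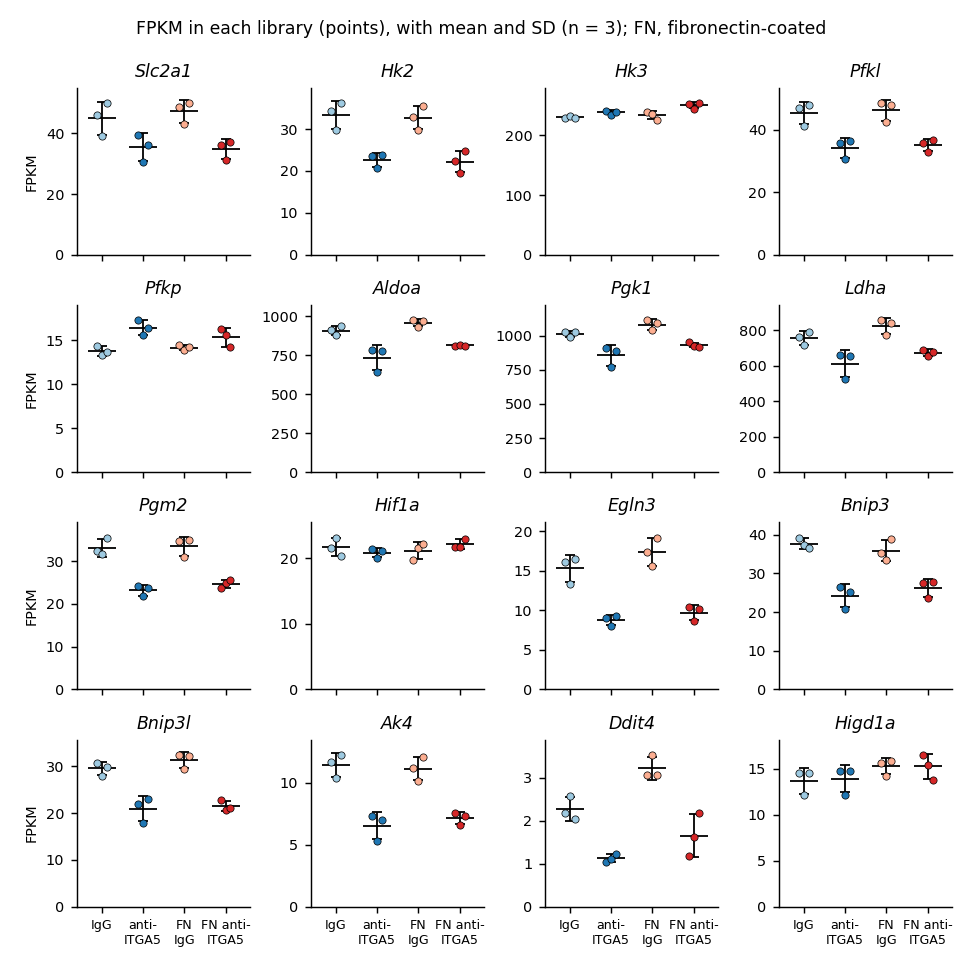
FPKM (y axis, from 0) of 16 genes in each of the 12 libraries, with mean and SD (n = 3) per group; light blue, IgG; blue, anti-ITGA5; light red, IgG on fibronectin; red, anti-ITGA5 on fibronectin. Egln3, Ak4, Pgm2 and Ddit4 show separated groups on both coatings, Pfkp is higher with anti-ITGA5 on uncoated plates, and Hif1a and Higd1a overlap.

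Of the other 9 HIF-1 targets, 7 fell on each coating, beside 9.79% and 13.2% of all genes. Ddit4, which encodes REDD1, an inhibitor of the growth kinase mTORC1, had the largest fold change and the lowest level. Its FPKM was 2.18, 2.58 and 2.05 with IgG and 1.04, 1.12 and 1.22 with anti-ITGA5 without fibronectin, from 27 to 135 counts per library over all groups. With fibronectin it was at 3.07, 3.53 and 3.07 against 1.17, 1.62 and 2.17, where the anti-ITGA5 libraries were widely spread but all below the IgG libraries. It fell by 1.00 ± 0.220 (adjusted p = 0.0090) and 0.98 ± 0.200 (adjusted p = 0.0031). Bhlhe40, a circadian and hypoxia-induced transcriptional repressor, was at 12.2, 11.7 and 13.5 FPKM against 8.23, 7.07 and 10.3 and at 12.6, 11.4 and 14.1 against 8.85, 8.87 and 9.87. It fell by 0.54 ± 0.111 and 0.47 ± 0.0785 (adjusted p = 0.0067 and 0.00082), without overlap.

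Mxi1, an antagonist of MYC, fell by 0.39 and 0.44 (adjusted p = 0.012 and 0.00025). Kdm3a, a histone H3 lysine demethylase, fell by 0.35 and 0.31 (adjusted p = 0.0029 and 0.0039), and Narf, which binds prelamin A, by 0.34 and 0.21 (adjusted p = 0.014 and 0.041). The collagen prolyl hydroxylase subunits differed in call, since P4ha2 fell by 0.34 and 0.44 (adjusted p = 0.026 and 0.00022) while P4ha1, the more abundant of the pair, did not pass. P4ha1 was at 53.4, 51.1 and 55.4 FPKM against 51.1, 44.1 and 51.3 and at 56.1, 53.5 and 57.7 against 54.2, 49.4 and 55.0, with overlapping groups and differences of -0.12 ± 0.0625 and -0.08 ± 0.0491 (adjusted p = 0.21 and 0.27). Ndrg1, a stress-induced gene, was at -0.31 without (adjusted p = 0.092) and fell by 0.32 with fibronectin (adjusted p = 0.019). Ankrd37 fell by 0.41 without (adjusted p = 0.039) and was at -0.44 with fibronectin (adjusted p = 0.071). Ankrd37 overlaps Ufsp2 on the opposite strand, which had 1037.8% as many counts and differences of 0.08 and -0.0026, and the part of its reads in the Ankrd37 count was not tested.

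The 2 antibody comparisons share no library, so they can be set side by side. Beside the 24 of the 40 genes that fell on both coatings, 3 (Pfkm, Pdk1 and Ankrd37) passed as lower only without and 5 (Hk1, Pfkfb3, Tpi1, Slc16a3 and Ndrg1) only with fibronectin, 1 (Pfkp) was higher only without fibronectin, and 7 passed on neither. Across the 40 genes, which are not independent of each other, the 2 sets of fold changes had a Pearson r of 0.941 and a Spearman rho of 0.943, against 0.728 and 0.726 across all genes tested on both. The set of all genes reaches down to the filter on low counts, so these are not correlations over genes of like level. The median absolute difference between the 2 estimates of a gene was 0.0504 log2 units. The test of the difference itself, the interaction of antibody and coating in 1 fit of all 12 libraries, passed for none of the 40 genes (edgeR, adjusted p of 0.9997 for each; 0 of 40 at an unadjusted p under 0.05, which 2.87% of all genes reached; 0 by DESeq2), against 0.0223% of the 13455 genes tested. The interaction estimates ran from -0.15 (Pfkp, 95% interval -0.30 to 0.01) to 0.19 (Pfkm, -0.06 to 0.44). Being lower on 1 coating alone was therefore not shown to be a difference between coatings.

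**Figure D5:**
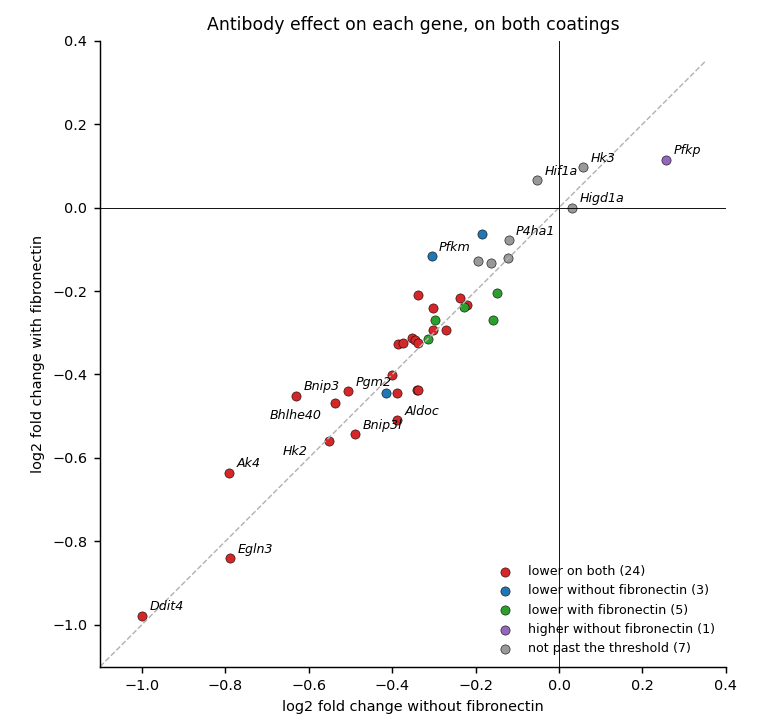
Log2 fold change of each of the 40 genes upon ITGA5 neutralization, without fibronectin (x axis) and with fibronectin (y axis), coloured by the calls on the 2 coatings; the dashed line marks equal effects. Points lie along that line, and 24 genes fell on both coatings.

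The effect of the coating was examined within each antibody. In IgG-treated BMM none of the 40 genes passed the test (edgeR; 8 at an unadjusted p under 0.05, which 9.79% of all genes reached; 0 by DESeq2), against 0.449% of 12925 genes that passed in either direction. Of the 8 genes, 7 had higher values on fibronectin: Ddit4 (0.51, 95% interval 0.19 to 0.82, adjusted p = 0.20), Tpi1, Ldha, Hk1, Gapdh, Pkm and Pgk1 (0.09 to 0.12, adjusted p = 0.35 to 0.41), while Pdk1 was at -0.09. With the replicate number as a block 5 of the 40 genes passed as higher, and 3 did when every gene with at least 1 count was tested, while over all genes 16 lower and 42 higher became 133 and 283 with the block and 66 and 175 with that filter. In anti-ITGA5-treated BMM no gene of the 12863 tested passed (0.0%), and none of the 40 had an unadjusted p under 0.05, which 3.58% of all genes reached. Ddit4 was at 0.53 there (95% interval -0.09 to 1.16, adjusted p = 0.98). DESeq2 passed none of the 40 either. The coating estimate was negative for 10 of the 40 genes in IgG libraries and for 8 in anti-ITGA5 libraries, beside 50.2% and 50.9% of all genes. Medians over the 40 genes were 0.053 and 0.069. Intervals on the coating effect in IgG libraries were narrow for abundant enzymes, such as 0.03 to 0.21 for Ldha.

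Library by library, the shift was present in each anti-ITGA5 library and varied in depth. Set against the mean of the IgG libraries on the same coating, the median over the 40 genes was -0.21, -0.44 and -0.25 log2 units in anti-ITGA5 replicates 1 to 3 without fibronectin and -0.29, -0.35 and -0.27 with fibronectin. The IgG libraries lay between -0.08 and 0.06, and replicate 2 was the lowest library in each of the 4 groups. Without anti-ITGA5 replicate 2 on uncoated plates, the library that stood apart, 31 of the 40 genes fell and Pfkp rose, while 14.0% of all genes fell, against 9.79% with all libraries. Of the 28 calls without fibronectin, 12 held in each of the 6 fits with 1 library left out (Hk2, Pfkl, Pfkp, Aldoc, Eno1, Pgm2, Egln3, Bnip3, Bnip3l, Kdm3a, Bhlhe40 and Ak4). With fibronectin, 25 of 29 did. Called under every alternative tried were 6 genes without fibronectin (Hk2, Pgm2, Egln3, Bnip3, Kdm3a and Ak4) and 17 with it. How many calls over all genes held in these ways was not counted.

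Related genes outside the 40 were less uniform. Their lists, and those below, were also chosen with earlier results of these data known. Of 37 other glycolysis and glycogen genes tested, 8 fell and 3 rose without fibronectin, and 7 fell and 6 rose with it, with medians of -0.06 and -0.02. As shares these were 21.6% and 8.11% without fibronectin, beside 9.79% and 11.0% of all genes. With fibronectin they were 18.9% and 16.2%, near the 13.2% and 14.4% of all genes. Eno2, the neuronal enolase, fell by 0.88 ± 0.168 and 1.03 ± 0.129 (adjusted p = 0.0046 and 9.7e-05), and Pdk2, another pyruvate dehydrogenase kinase, by 0.80 and 0.51. Slc2a6, the transporter GLUT6, rose by 0.93 ± 0.0988 and 0.42 ± 0.0986 (adjusted p = 0.00012 and 0.0076), in the opposite direction to Slc2a1. The pentose phosphate pathway branches off at glucose-6-phosphate and yields NADPH and ribose. Of its 8 genes, 3 fell (37.5%) and 1 rose without fibronectin, and 4 fell (50.0%) and 1 rose with it. Each gene is 12.5% of so short a list, and the shares of all genes are those given above. Taldo1, the transaldolase, fell from 321.2 ± 14.3 to 215.5 ± 25.2 FPKM (-0.57, adjusted p = 0.00049) and from 356.3 ± 10.2 to 226.2 ± 1.19 FPKM (-0.66, adjusted p = 6.7e-07). Pgd, a NADPH-forming enzyme, fell by 0.37 and 0.43, and Rpe, the ribulose-phosphate epimerase, rose by 0.30 and 0.31.

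Among 13 other regulators of the HIF pathway tested, 1 fell and none rose on each coating (7.69%, below the 9.79% and 13.2% of all genes that fell). That gene was Epas1, which encodes the HIF-2 α subunit, at 6.57 ± 0.591 FPKM with IgG and 4.43 ± 0.259 with anti-ITGA5 without fibronectin and at 5.94 ± 0.723 and 4.34 ± 0.899 with it (-0.57 and -0.45, adjusted p = 0.00095 and 0.021). Of other HIF targets, 11 of 32 fell and 1 rose without fibronectin, and 14 of 33 fell and 4 rose with it, with medians of -0.19 and -0.26. The shares that fell, 34.4% and 42.4%, stand beside 9.79% and 13.2% of all genes. Hmox1, the heme oxygenase that other stress factors also induce, fell from 1710.3 ± 270.3 to 1064.8 ± 198.8 FPKM and from 1818.6 ± 260.1 to 1193.5 ± 147.9 FPKM (-0.68 and -0.61, adjusted p = 0.0048 and 0.00060). Ppfia4, a liprin, fell by 0.69 and 0.72, and Vldlr, a lipoprotein receptor at only 4 to 37 counts per library, fell by 1.73 and 1.39.

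Markers of proliferation moved the other way from the glycolytic genes. Of 12 proliferation markers, 9 rose on each coating (75.0%, against 11.0% and 14.4% of all genes), with medians of 1.14 and 1.20. Their summed FPKM was 421.1 to 488.8 with IgG and 640.9 to 699.7 with anti-ITGA5 without fibronectin, and 432.2 to 509.4 against 617.5 to 750.4 with it. Replicate 2 had the highest proliferation sum and the lowest median of the 40 genes in both IgG groups and in the anti-ITGA5 group with fibronectin. Without fibronectin, anti-ITGA5 replicate 1 had the highest sum (699.7) and replicate 2 (684.4) the lowest median. Of 10 macrophage markers, 4 (Cd68, Itgam, Mertk and Lyz2) fell and Cd14 rose on both coatings (4 of 10 lower, beside 9.79% and 13.2% of all genes). The summed FPKM of the 10 was 10380.7 to 11273.0 with IgG and 7270.4 to 8893.0 with anti-ITGA5 without fibronectin, and 11021.3 to 11182.4 against 8747.9 to 8915.7 with it. Lyz2, the lysozyme gene, made up most of that sum, with a mean of 7514.2 FPKM with IgG and 5255.7 with anti-ITGA5 without fibronectin and 7808.9 and 5690.6 with it. The other 5 (Adgre1, Csf1r, Fcgr1, C1qa and C1qb) did not pass the test on either coating (-0.30 to 0.10, adjusted p = 0.052 to 0.87). Of the osteoclast markers, Acp5 fell with fibronectin (-0.93, adjusted p = 0.0074), and their summed FPKM was 4.13 to 5.25 with IgG and 3.00 to 4.21 with anti-ITGA5 without fibronectin, and 5.96 to 7.34 against 3.09 to 5.74 with it. Of the neutrophil markers, Mpo, at 3 to 21 counts per library, passed as lower with fibronectin (-0.94, adjusted p = 0.0499). Their summed FPKM was 3.02 to 4.43 with IgG and 1.82 to 3.02 with anti-ITGA5 there, and 2.37 to 4.04 against 2.59 to 3.56 without fibronectin. The part of any of these marker groups in the lower level of the glycolysis and hypoxia genes was not tested.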

How the data were processed

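RNA of 12 BMM libraries was enriched for poly(A), and paired-end reads of 150 bp were aligned by the authors to GRCm38.p6 (mm10) with TopHat2 2.0.9 and counted per gene with HTSeq 0.6.1. The Ensembl release and the strand setting are not given in the sources used here, and the submitters' processing notes also name Cufflinks 2.1.1. The deposited table holds raw counts for 54532 genes, and the FPKM the authors deposited beside them divide counts by gene length and a scaled library total. FPKM were used for levels, shares and separation of groups, and counts for tests. A second, low-count entry named Aldoa was left out.

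Each comparison was fitted on its own 6 libraries, and the interaction on all 12, with edgeR 4.0.16 in R 4.3.3 (filterByExpr, minimum count 10, minimum total 15; TMM; glmQLFit and glmQLFTest), with Benjamini-Hochberg adjustment over all genes tested and a threshold of 0.05. Intervals are 95%. The procedure was tested on simulated data with known changes before use. Alternatives were DESeq2 1.42.0, other scalings and filters, limma 3.58.1 on log2(FPKM + 1) and log2(FPKM + 0.1), 1 fit of all 12 libraries, a replicate block, a threshold of 0.01 and leaving out each library.

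The 40 genes and the lists beside them were chosen with earlier results of these data known. Values of every library are given for the members of each role with the largest and second largest mean absolute fold change over the 2 antibody comparisons and with the highest mean FPKM, and for Pfkp, Hif1a and Higd1a, added after their values were seen. Other pathway genes are the 3 per list with the largest mean change among those called on both coatings. Promoters were matched by symbol or synonym and chromosome, since RefSeq exchanges the names Pgm1 and Pgm2. Libraries held 12954342 to 22075432 counts. 1 list of markers of other cell types is not reported here.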

Additional observations from a re-analysis of the deposited data

How the results depend on the processing

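The direction of the fall held for the median of the 40 genes under every alternative tried, from -0.352 to -0.258 without and from -0.339 to -0.261 with fibronectin. The number of genes that fell depended on the setting. Without fibronectin it was 7 in the unfiltered limma fit of log2(FPKM + 1), where none of the 40 rose (0) and 2.08% of all genes fell. At an adjusted p of 0.01 it was 14, and no share of all genes is given for that threshold. With 1 library left out it was 13 to 31, while 4.7% to 14.0% of all genes fell. With fibronectin it was 17 in the unfiltered limma fit (3.34% of all genes), and 26 to 30 with 1 library left out (8.43% to 14.4% of all genes). The number that rose with fibronectin was 2 with total counts, 2 with the replicate block and 0 to 1 with 1 library left out (Pfkp, without anti-ITGA5 replicate 3). For the coating in IgG libraries, 3 genes rose when every gene with at least 1 count was tested and 5 with the replicate block. Higd1a, not called, changed sign: its log2 difference was -0.0516 to 0.109 without fibronectin with 1 library left out, and with fibronectin 6.6e-05 with DESeq2's size factors, 0.0404 with total counts, 0.0012 with every gene of at least 1 count and -0.0601 to 0.067 with 1 library left out. The cause of these changes was not tested. Of the values for single genes, 1194 kept their direction and side of the threshold, 137 lost and 32 gained the threshold and 9 changed sign.

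The replicate numbers are shared between groups, and the labels do not say that a number marks a shared mouse or day. The correlation of same-numbered libraries was 0.0320 to 0.149 in the antibody comparisons. Whether the numbers pair the libraries was not established, and the main fits do not use them. With the replicate block, 31 genes fell on each coating, as did 11.0% and 17.2% of all genes. Every library correlated best with its own number in both antibody comparisons and in the coating comparison of IgG libraries. Depth limits the precision of Ddit4, at 27 to 135 counts per library, and having 3 libraries per group limits all intervals.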
